A study of Sus scrofa with 10 samples.

Results

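A group of 10 pig genes, CRB2, DCDC2, CHL1, GAL3ST3, STK32A, GABBR2, OLFM3, SYNDIG1L, SEL1L3 and CP, had their highest counts in grafts grown from testicular fibroblasts alone. They are 10 of the 27376 gene rows counted. They were picked by name because they were high in these grafts in the same libraries described here, so their higher level there is the reason for the choice and not a finding. The choice did not directly set how the grafts with germ cells compared with control testis. Nor did it directly set how levels varied from graft to graft or what relatives of the genes did. It favoured genes low in control and high in every graft of fibroblasts alone, so that comparison and that spread are not free of it.

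The libraries fall into 3 groups of pig (Sus scrofa) tissue. The 4 GF libraries came from tissue grown from germ cells together with testicular fibroblasts. The 4 FO libraries came from tissue grown from testicular fibroblasts only. For both, primary cells in high concentrate Matrigel, a basement membrane gel, were placed in the dorsal skin of a mouse that the labels call SKID, and the tissue was taken 6 months after grafting. The 2 control libraries carry titles of testis tissue marked 5D, a code left unexplained in the labels, so their age is not known here and a difference of age from the grafts cannot be told apart from a difference of tissue. The remaining label fields of the control libraries repeat those of the GF grafts. The design's question is whether adding germ cells influences the remodelling of the tissue. No label says that libraries of a group are separate animals or cultures, so the p-values measure the spread between these samples, which may be technical.

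The 10 genes belong to several kinds of cell machinery. CRB2 is a Crumbs protein, which marks the apical side of a polarised epithelial cell and organises the junctions below it, and DCDC2 is a doublecortin domain protein that binds microtubules and sits in the primary cilium. CHL1 is a cell adhesion molecule of the L1 family, and GABBR2 and OLFM3 are best known from synapses, where they take part in GABA and glutamate signalling. SYNDIG1L is related to the synapse differentiation factor SynDIG1, and only by this relation is it grouped with them below as a synaptic-type gene. CP encodes ceruloplasmin, the main copper protein of blood plasma, which in the rat is also secreted by Sertoli cells of the testis.

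PolyA RNA was counted at the 3' end of transcripts (QuantSeq). Total counts were 2915534 to 4917325 in GF, 4033509 to 4887878 in FO, and 5844944 and 7013911 in control. Levels are counts scaled to a library of 1000000 (CPM) with TMM factors. A count of 0 allows up to 3 counts, which is 0.453 to 1.04 CPM depending on the library, for counting error only. The FO label was checked against marker genes. Germ cell markers summed to 523 to 2855 CPM in GF, only 6.36 to 8.92 CPM in FO, and 122 and 128 CPM in control. Fibroblast markers summed to 1662 to 2759 CPM in GF, 3852 to 6002 CPM in FO, and 4387 and 4415 CPM in control, without overlap of GF with either other group. Gene by gene the 8 fibroblast markers split, with 5 called lower and 1 (LUM) higher in GF than in FO. Against control, 2 (LUM and DPT) were called lower in FO and 0 higher by edgeR or DESeq2, while 2 were higher at an unadjusted p under 0.05. Sertoli cell markers (14950 to 45660 CPM in GF, 4861 to 8813 CPM in FO, 4916 and 5486 CPM in control) and Leydig cell markers (1404 to 3049 CPM in GF, 477 to 3706 CPM in FO, 14020 and 16640 CPM in control) were counted in FO grafts too, so that the FO tissue held transcripts of more than fibroblast genes. Most of each Sertoli sum was the single gene CLU. The other 11 Sertoli markers summed to 1189 to 1731 CPM in GF, 967 to 1133 CPM in FO, and 1309 and 1414 CPM in control. In such bulk tissue, fewer cells of a type and less RNA per cell cannot be told apart. Reads of the host mouse were not separated.

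Every FO library stood above every GF and every control library for 10 of 10 genes, a pattern that 9.42% of the 15877 genes of the fit over all groups show. Set against control alone, FO libraries lay above both control libraries for 10 of 10, and for 26.7% of all genes. By the fitted ratios, levels in GF were 4.55-fold (CRB2) to 13.7-fold (OLFM3) lower than in FO. In the edgeR fit over all genes, 10 of 10 were called lower in GF than in FO, where 13.0% of all tested genes were, and 9 of 10 were called higher in FO than in control, where 8.12% of all genes were. Without control 1 or control 2 it was 8 of 10, as OLFM3 then lost its call. Both contrasts chose the genes, and these counts are given as a description only. The median log2 fold change of the 10 genes was -2.88 for GF over FO and 6.64 for FO over control, against -0.02 and -0.04 for all genes tested. Without FO 1 and GF 3 the first median was -2.39, and without GF 3 and GF 4 it was -2.44.

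**Figure D1:**
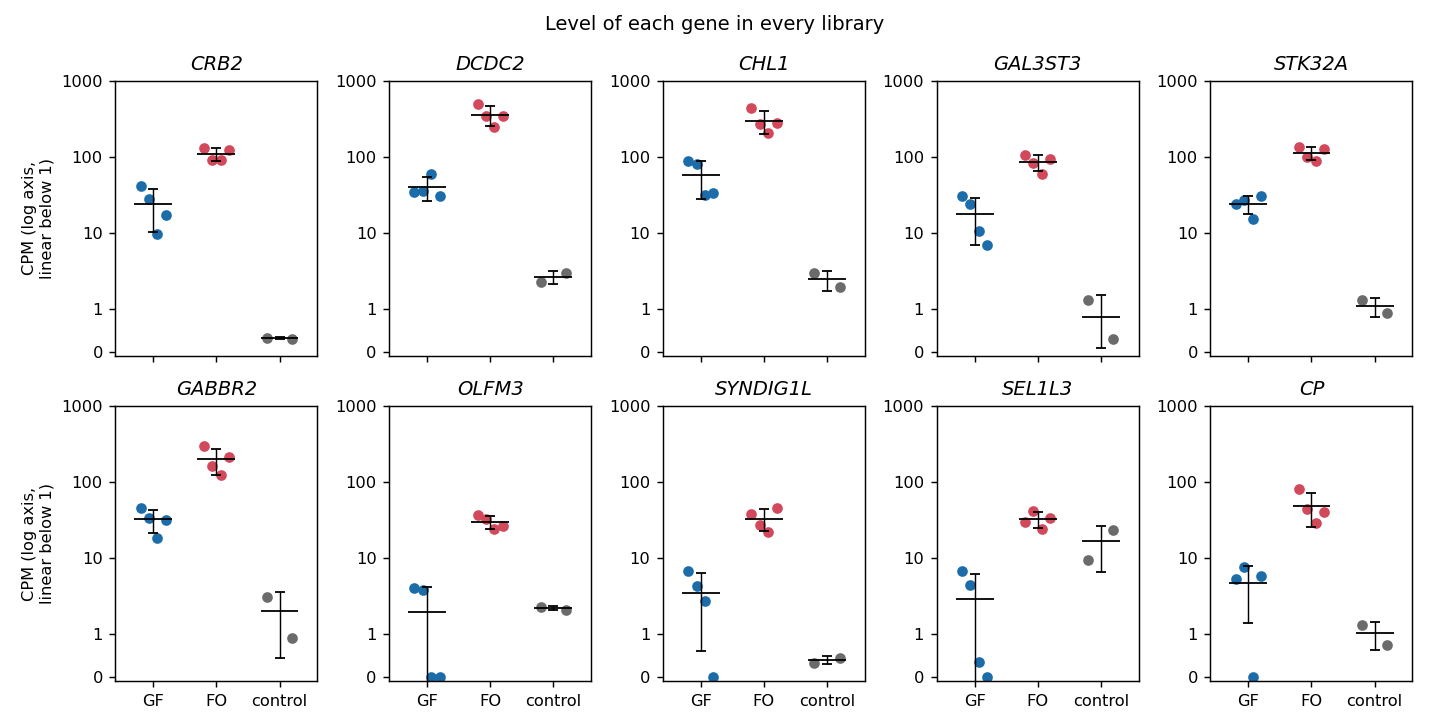
Level of each of the 10 genes in every library, in CPM on an axis that is logarithmic above 1 and linear below it. Each point is 1 library of the 4 GF grafts, 4 FO grafts or 2 control testes, the long bar is the group mean and the whiskers are 1 SD, cut off at the lower edge for OLFM3 and SEL1L3 in GF. The FO points lie above all other points for all 10 genes, and for SEL1L3 the higher control library, at 23.9 CPM, comes close to the lowest FO library, at 24.1 CPM.

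The polarity and cilium genes were among those with the widest gap to control testis. CRB2 (chr1:264277549-264301731, build Sscrofa11.1, as are all positions here) had 41.1, 28.3, 9.67 and 17.3 CPM in GF 1 to GF 4, 133, 91.1, 92.7 and 126 CPM in FO 1 to FO 4, and 0.33 and 0.302 CPM in the control libraries. The control values rest on 2 counts each, so CRB2 was near the limit of detection there. The log2 fold change was -2.19 ± 0.38 (SE) for GF over FO and 8.34 ± 0.74 for FO over control. The 3 groups did not overlap, and GF 1 stood 4.26-fold above GF 3, the lowest GF library. DCDC2 (chr7:19044229-19219055) had 34.5, 35.7, 60.8 and 30.8 CPM in the GF libraries, 499.5, 342, 246 and 352 CPM in the FO libraries, and 2.31 and 3.02 CPM in control. Here GF 3 was the highest of its group, the opposite of CRB2. Its log2 fold change was -3.15 ± 0.31 for GF over FO and 7.06 ± 0.49 for FO over control, and again no groups overlapped.

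Against control testis, a comparison the choice did not use directly since both were its lower groups, CRB2 and DCDC2 were both higher in GF. CRB2 averaged 24.1 ± 13.7 CPM in GF grafts and 0.316 ± 0.0195 CPM in control (SD, n = 4 and n = 2), a log2 fold change of 6.16 ± 0.71 (edgeR adjusted p = 9.49e-05). DCDC2 averaged 40.4 ± 13.7 CPM in GF grafts and 2.67 ± 0.505 CPM in control, a change of 3.90 ± 0.43 (edgeR adjusted p = 7.35e-05). Over all members, 7 of 10 were called higher and 1 of 10 lower in GF than in control, beside 14.0% and 11.8% of all genes tested. The choice favoured genes low in control, so all genes are no fair yardstick for these counts. The adjusted p of a member for GF over control, here and below, is likewise a description.

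The relatives of these genes split. CRB3, the small Crumbs protein found in most epithelia, had 1.71, 0.542, 0 and 0 CPM in the GF libraries, 15.1, 13.5, 12.8 and 15.5 CPM in the FO libraries, and 1.65 and 0.907 CPM in control. Like CRB2 it was thus lower in GF than in FO (-4.41 ± 0.75, adjusted p = 0.00144). Without GF 1 the GF count was 3 in all, and CRB3 was 53.4-fold lower in GF (95% counting interval 18.1 to 261), while without GF 3 and GF 4 the log2 value was -3.68. CRB3 was also called higher in FO than in control (3.45 ± 0.90, adjusted p = 0.0166), a call that ended without control 1 (adjusted p = 0.115) or control 2 (0.202). CRB1, the retinal Crumbs gene, was too low for the test, with at most 1.44 CPM in any library. Among the doublecortin relatives, DCLK1, a microtubule-binding kinase, averaged 41.5 ± 13.0 CPM in GF, 107 ± 16.5 CPM in FO and 26.1 ± 1.16 CPM in control. It was lower in GF than in FO (-1.36 ± 0.28, adjusted p = 0.00359) and higher in FO than in control (2.04 ± 0.35, adjusted p = 0.00139). DCX, doublecortin itself, ran the other way. It averaged 27.2 ± 7.64 CPM in GF, 12.6 ± 4.43 CPM in FO and 63.4 ± 2.01 CPM in control, so that it was lower in FO than in control (-2.33 ± 0.36, adjusted p = 6.63e-04). Its higher level in GF than in FO (1.11 ± 0.35, adjusted p = 0.0324) did not pass without GF 3, GF 4, FO 1, FO 3 or FO 4 (adjusted p = 0.0528 to 0.0958).

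Of 21 tested genes of the apicobasal polarity complexes (Crumbs, PAR and Scribble groups), 2 were higher in GF than in FO, 7 lower and 12 did not pass. That is 9.52% higher and 33.3% lower, beside 17.6% and 13.0% of all genes, with a list median of -0.32. The higher genes were LIN7A, a scaffold of the Crumbs complex (3.20 ± 0.55, adjusted p = 0.00148), and SCRIB, which marks the basolateral side (1.46 ± 0.28, adjusted p = 0.0025). In FO relative to control, 5 of 21 polarity genes were higher, 1 lower and 15 did not pass. Their shares, 23.8% and 4.76%, stood beside 8.12% and 10.6% of all genes. EPB41L5, a binding partner of Crumbs, was higher in FO (1.85 ± 0.29, adjusted p = 8.26e-04), as were the junction scaffold AMOT (1.64 ± 0.34, adjusted p = 0.00465) and the PAR complex kinase PRKCZ (1.81 ± 0.45, adjusted p = 0.0138). The call of AMOT ended without control 1 (adjusted p = 0.101) and that of PRKCZ without control 1 (0.117) or control 2 (0.143). Of 15 tested doublecortin and primary cilium genes, 2 were higher in GF than in FO, 1 lower (DCLK1) and 12 did not pass. As shares, 13.3% were higher and 6.67% lower, beside 17.6% and 13.0% of all genes. The second higher gene, the cilium transport gene IFT88 (0.73 ± 0.25, adjusted p = 0.0428), had groups that overlapped and did not pass without GF 2, GF 3 or any single FO library (adjusted p = 0.051 to 0.121). Of 18 such genes tested for FO over control, 2 were higher, 2 lower and 14 did not pass. PKD2, a channel of the cilium membrane, was higher in FO (1.07 ± 0.28, adjusted p = 0.018), a call that ended without control 1 (0.158) or control 2 (0.159).

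Markers of simple epithelium and rete testis were counted beside the polarity genes. Their sum was 136 to 258 CPM in GF, 283 to 474 CPM in FO, and 175 and 179 CPM in control, so the FO libraries were highest here too. Of 5 markers tested, CDH1 and KRT8 were called lower in GF than in FO and 0 higher by edgeR, by DESeq2 or at an unadjusted p under 0.05. Of 7 tested for FO over control, 3 were called higher (CDH1, KRT7 and KRT19) and 1 lower (ESRP1), and KRT8 did not pass (adjusted p = 0.379). EPCAM, KRT18, CDH16 and PAX2 were low in FO, at no more than 4.24, 6.36, 1.06 and 0.435 CPM. CDH1, the epithelial cadherin, had 7.93, 8.49, 3.80 and 3.11 CPM in the GF libraries, 22.3, 10.7, 13.8 and 12.1 CPM in the FO libraries, and 2.64 and 1.21 CPM in control. The CDH1 call ended without GF 3, GF 4 or any single FO library (adjusted p = 0.0667 to 0.173). The part of such cells in the levels of CRB2 or CRB3 was not tested.

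CHL1 and GAL3ST3, the adhesion molecule and the Golgi enzyme that adds sulfate to galactose on glycoproteins, followed the same order of groups. CHL1 (chr13:56804309-57034191) had 88.1, 81.1, 31.4 and 33.5 CPM in the GF libraries, 444, 274, 210.4 and 277 CPM in the FO libraries, and 2.97 and 1.96 CPM in control. GF 1 and GF 2 thus stood well above GF 3 and GF 4, yet below the lowest FO library. On the log2 scale the change was -2.36 ± 0.38 for GF over FO, 6.92 ± 0.64 for FO over control, and 4.57 ± 0.58 for GF over control (edgeR adjusted p = 1.75e-04 for this last comparison). GAL3ST3 (chr2:6297797-6306200) had 30.6, 24.2, 10.7 and 6.91 CPM in the GF libraries, 106, 83.5, 59.1 and 94.5 CPM in the FO libraries, and 1.32 and 0.302 CPM in control. The same 2 GF libraries were low, and no groups overlapped. Its log2 fold change was -2.22 ± 0.41 for GF over FO, 6.70 ± 0.77 for FO over control, and 4.49 ± 0.73 for GF over control (edgeR adjusted p = 8.53e-04 for this last comparison). The control values of GAL3ST3 were 8 and 2 counts. Without control 1 it was 279-fold higher in FO (95% counting interval 77.2 to 2309) and 67.9-fold higher in GF (18.6 to 563) than in control. Without control 2 the log2 values were 5.98 and 3.75.

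The other L1 family genes moved in both directions. NRCAM, an adhesion molecule of axons, averaged 5.10 ± 3.44 CPM in GF, 36.4 ± 10.1 CPM in FO and 4.28 ± 0.71 CPM in control, and was lower in GF than in FO (-2.80 ± 0.62, adjusted p = 0.00564). L1CAM, the founding member, averaged 3.72 ± 3.17 CPM in GF, 20.1 ± 10.97 CPM in FO and 2.37 ± 0.146 CPM in control (-2.38 ± 0.66 for GF over FO, adjusted p = 0.0173). Without FO 2 the L1CAM call ended (adjusted p = 0.072), and without GF 2 its log2 fold change was -3.09. NFASC, neurofascin, went the opposite way, with 7.78 ± 6.11 CPM in GF, 0.808 ± 0.479 CPM in FO and 5.47 ± 0.895 CPM in control (3.23 ± 0.76 for GF over FO, adjusted p = 0.0079). Without GF 3, its highest library, the NFASC log2 fold change was 2.53. Against control, NRCAM (3.08 ± 0.78, adjusted p = 0.0149) and L1CAM (3.08 ± 0.86, adjusted p = 0.0236) were higher in FO and NFASC lower (-2.73 ± 0.79, adjusted p = 0.0275). All 3 of these calls ended without control 1 or control 2 (adjusted p = 0.117 to 0.198), that of L1CAM also without FO 2 or FO 3 (0.0714 and 0.0524), and that of NFASC also without FO 1, FO 2 or FO 3 (0.0541 to 0.0751).

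Of 15 tested genes of the L1 family, the contactins and their anchors, 4 were higher in GF than in FO, 5 lower and 6 did not pass, with a median of 0.25. That is 26.7% higher and 33.3% lower, beside 17.6% and 13.0% of all genes. The lower ones included NCAM1, the neural cell adhesion molecule (-1.18 ± 0.21, adjusted p = 0.00168), ANK3, the ankyrin that anchors L1 proteins to the cytoskeleton (-1.67 ± 0.32, adjusted p = 0.00241), and the contactin CNTN1 (-2.91 ± 0.61, adjusted p = 0.00422, and -3.58 without GF 2). When FO was set against control testis, 3 of 16 were higher, 2 lower and 11 did not pass. These are 18.8% and 12.5%, beside 8.12% and 10.6% of all genes. NCAM1 and ANK3 did not pass there (adjusted p = 0.701 and 0.741). CNTN1 was higher in FO (3.13 ± 0.79, adjusted p = 0.0144) and NCAM2 lower (-2.92 ± 0.72, adjusted p = 0.0129), and both calls ended without control 1 (0.0823 and 0.116) or control 2 (0.184 and 0.0663). Of the enzymes related to GAL3ST3, GAL3ST1, GAL3ST2 and GAL3ST4 stayed at means of at most 4.06 CPM in every group, and none passed in any comparison in which it was tested, although GAL3ST1 was called lower in FO than in control without GF 3 (adjusted p = 0.0369). GAL3ST2 averaged 0.719 ± 0.883 CPM in GF, 4.06 ± 1.91 CPM in FO and 1.84 ± 0.894 CPM in control (-2.27 ± 0.88 for GF over FO, adjusted p = 0.0684), and it passed without GF 2 (-3.15, adjusted p = 0.0425). Of 22 tested galactose and carbohydrate sulfotransferases and sulfatases, 0 were called higher in GF than in FO by edgeR, 2 lower and 20 did not pass. A further look gave 2 higher at an unadjusted p under 0.05 and 0 called higher by DESeq2. The lower share was 9.09%, beside 13.0% of all genes, of which 17.6% were higher. The lower ones were UST, which sulfates uronic acid (-2.40 ± 0.40, adjusted p = 0.0013), and SULF2, which removes sulfate from heparan chains (-0.72 ± 0.25, adjusted p = 0.0493). The SULF2 call ended without any single library but GF 3 (adjusted p = 0.0568 to 0.124). For FO over control 2 of 25 were higher, 4 lower and 19 did not pass. Shares here were 8% and 16%, beside 8.12% and 10.6% of all genes. CHST8 and CHST7, which sulfate N-acetylgalactosamine and N-acetylglucosamine, were lower in FO (-4.53 ± 0.57, adjusted p = 1.61e-04, and -3.05 ± 0.77, adjusted p = 0.0144), while SULF2 was higher (1.43 ± 0.32, adjusted p = 0.00721). Without FO 3 the CHST8 value was -5.43. The calls of CHST7 and SULF2 ended without control 1 (0.105 and 0.122) or control 2 (0.115 and 0.0735), and that of CHST7 also without FO 1 (0.0506).

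**Figure D2:**
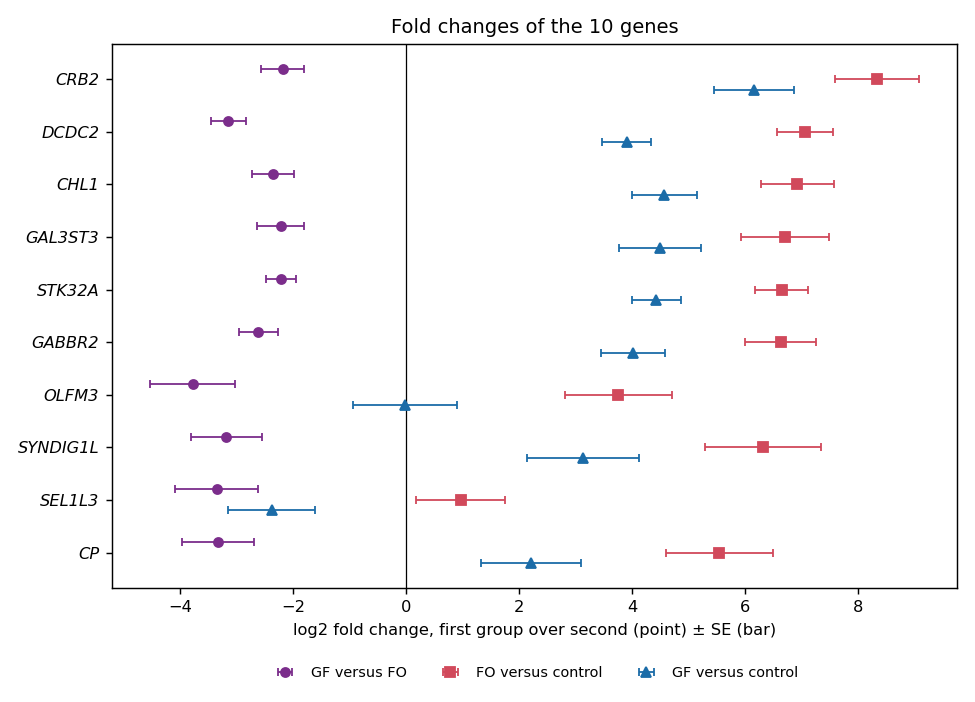
Log2 fold changes of the 10 genes in the 3 comparisons, with the first group over the second and bars of 1 SE from edgeR. GF versus FO lies left of 0 for all 10 genes, and GF versus control lies right of 0 for 8 genes, near 0 for OLFM3 (-0.02) and left of it for SEL1L3 (-2.38).

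The synaptic-type genes GABBR2, OLFM3 and SYNDIG1L differed in how GF stood to control. GABBR2 (chr1:240107469-240495917), the subunit of the GABA-B receptor that couples it to G proteins, had 45.7, 33.9, 18.3 and 32.2 CPM in the GF libraries, 299, 162, 126 and 214 CPM in the FO libraries, and 3.13 and 0.907 CPM in control. The groups did not overlap. The log2 fold change was -2.62 ± 0.34 for GF over FO, 6.63 ± 0.63 for FO over control and 4.01 ± 0.57 for GF over control (edgeR adjusted p = 3.75e-04 for this last comparison). Because its control libraries differ, the values against control were 7.73 (FO) and 5.11 (GF) without control 1, and 5.97 and 3.35 without control 2.

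OLFM3 (chr4:116428889-116626134), a secreted olfactomedin protein of brain and eye, had 4.07, 3.79, 0 and 0 CPM in the GF libraries, 37.1, 32.8, 24.3 and 26.5 CPM in the FO libraries, and 2.31 and 2.12 CPM in control. Here the GF libraries lay on both sides of control, with 0 counts in GF 3 and GF 4, where 3 counts would be 1.04 CPM in either library. Its log2 fold change was -3.78 ± 0.75 for GF over FO and 3.75 ± 0.94 for FO over control, where its call ended without control 1 (edgeR adjusted p = 0.131) or control 2 (0.152). For GF over control it was -0.02 ± 0.92 and did not pass (edgeR adjusted p = 0.990). SYNDIG1L (chr7:97658299-97679796), a membrane protein related to the synapse differentiation factor SynDIG1, had 6.86, 4.33, 2.76 and 0 CPM in the GF libraries, 38.5, 27.2, 22.02 and 45.6 CPM in the FO libraries, and 0.33 and 0.453 CPM in control. GF 4, at 0, overlapped the control libraries. On the log2 scale the change was -3.18 ± 0.63 for GF over FO and 6.31 ± 1.03 for FO over control. For GF over control it was 3.13 ± 0.99 (edgeR adjusted p = 0.0327), and that call ended without GF 1, GF 2 or FO 1 (adjusted p = 0.051 to 0.0589) and without control 1 (0.2) or control 2 (0.182).

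GABBR1, the partner subunit that binds GABA and forms the receptor together with GABBR2, did not share the order of groups. GABBR1 had 79.7, 64.1, 176 and 172 CPM in the GF libraries, 43.2, 58.7, 67.8 and 75.4 CPM in the FO libraries, and 14.3 and 12.7 CPM in control. It was higher in FO than in control (2.18 ± 0.45, adjusted p = 0.00456), a call that ended without control 1 (0.0549) or control 2 (0.0792), and higher in GF than in control (3.18 ± 0.47, adjusted p = 4.98e-04). Between the grafts it was called higher in GF (1.01 ± 0.35, adjusted p = 0.0463) although the groups overlapped, and this call ended without GF 3, GF 4 or any single FO library (adjusted p = 0.0641 to 0.133). GABBR2 thus stood lower in GF than in FO while GABBR1 did not.

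Of 8 tested GABA genes, 2 were higher in GF than in FO, 2 lower and 4 did not pass, with a median of -1.13. Each direction held 25% of the list, beside 17.6% and 13.0% of all genes. KCTD16, an auxiliary subunit of the GABA-B receptor, averaged 9.90 CPM in GF grafts, 65.5 CPM in FO and 70.6 CPM in control. It was lower in GF than in FO (-2.71 ± 0.31, adjusted p = 2.02e-04) and did not pass for FO over control (-0.11 ± 0.32, adjusted p = 0.859). Its level in FO was thus near that in control, unlike that of GABBR2. GABRG1, a GABA-A subunit, was lower in GF too (-2.43 ± 0.71, adjusted p = 0.0229), a call that ended without FO 1, FO 2 or FO 4 (0.0644 to 0.0822). ABAT, which breaks GABA down, was higher in GF (2.30 ± 0.63, adjusted p = 0.0165), with a value of 1.68 without GF 3 (adjusted p = 0.0535) and no call without FO 2 (0.0516) or FO 4 (0.051). With FO set against control, 2 of 17 GABA genes were higher, 4 lower and 11 did not pass. Their shares were 11.8% and 23.5%, beside 8.12% and 10.6% of all genes. The GABA-A subunits GABRB2 (-4.63 ± 0.73, adjusted p = 8.03e-04) and GABRG1 (-2.59 ± 0.55, adjusted p = 0.00596) were lower in FO, and the GABRG1 call ended without control 2 (0.134).

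Among 13 tested genes of the olfactomedin family, the SynDIG relatives and the AMPA receptors, 0 were called higher in GF than in FO by edgeR, 3 lower and 10 did not pass, while 1 was higher at an unadjusted p under 0.05 and 1 was called higher by DESeq2. The lower share was 23.1%, beside 13.0% of all genes, of which 17.6% were higher. GRIA4, an AMPA receptor subunit, had 9.65, 12.8, 2.42 and 11.06 CPM in the GF libraries, 54.9, 45.2, 45.1 and 32.0 CPM in the FO libraries, and 2.47 and 1.96 CPM in control. It was lower in GF than in FO (-2.28 ± 0.42, adjusted p = 0.00204) and higher in FO than in control (4.30 ± 0.60, adjusted p = 3.50e-04). PRRT2, a presynaptic relative of the SynDIG proteins, averaged 39.5 ± 6.92 CPM in GF, 76.0 ± 16.3 CPM in FO and 19.0 ± 2.73 CPM in control (-0.94 ± 0.25 for GF over FO, adjusted p = 0.0136, and 2.00 ± 0.32 for FO over control, adjusted p = 8.03e-04). The call of PRRT2 for GF over FO ended without FO 1 (0.0557). OLFML3, a secreted olfactomedin-like protein, was lower in GF (-1.68 ± 0.45, adjusted p = 0.0142), a call that ended without FO 4 (0.0581). In FO relative to control, 4 of 15 were higher, 3 lower and 8 did not pass. Shares were 26.7% and 20%, beside 8.12% and 10.6% of all genes. GRIA3, another AMPA receptor subunit, was lower in FO (-2.20 ± 0.48, adjusted p = 0.00653), a call that ended without control 1 (0.088). PRRT1, a SynDIG relative that binds AMPA receptors, had 3.43, 0.542, 0 and 3.11 CPM in the GF libraries, 3.62, 2.83, 3.36 and 5.30 CPM in the FO libraries, and 0 counts in both control libraries. Against 3 counts over the control group it was at least 16.0-fold higher in FO, and at least 8.36-fold without control 1 or 7.67-fold without control 2. OLFM1 and OLFM2 did not pass in any of the 3 comparisons, and SYNDIG1 was too low for the test.

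Neuronal markers were counted beside these synaptic-type genes. Their sum was 68.8 to 236 CPM in GF, 105 to 148 CPM in FO, and 91.0 and 101 CPM in control, so the FO libraries lay inside the range of GF. Of 8 markers tested for GF over FO, 3 were called higher and 1 lower, and TH was at 0 in all FO libraries. The higher ones were the neuronal RNA-binding genes ELAVL3 (3.05, adjusted p = 0.00168), ELAVL4 (2.50, adjusted p = 0.00104) and RBFOX3 (4.16, adjusted p = 0.00159). The value of ELAVL3 was 2.44 without GF 3, and that of RBFOX3 was 4.85 without FO 3. ELAVL4, for example, had 22.1, 36.8, 29.3 and 30.4 CPM in the GF libraries, 2.23, 6.53, 7.55 and 4.45 CPM in the FO libraries, and 64.3 and 69.5 CPM in control. The lower one, the axonal growth gene STMN2, had 10.3, 2.71, 6.56 and 19.4 CPM in the GF libraries, 49.6, 78.3, 70.7 and 105 CPM in the FO libraries, and 13.2 and 15.1 CPM in control. Markers of Schwann cells and other glia summed to 113 to 163 CPM in GF, 88.1 to 141 CPM in FO, and 97.8 and 119 CPM in control. Of 5 glial markers tested for GF over FO, 1 was called higher and 1 lower, and CDH19 and FABP7 were at 0 in all FO libraries. The part of nerve or glia in the levels of GABBR2, OLFM3 or SYNDIG1L was not tested. Endothelial markers added up to 29.4 to 55.9 CPM in GF grafts, 95.85 to 172 CPM in FO grafts, and 228 and 234.0 CPM in control testis. Much of the gap between the grafts was EMCN, with 1.04 to 11.8 CPM in GF and 50.6 to 79.6 CPM in FO. It was the only 1 of 5 endothelial markers tested that was called lower in GF, and VWF overlapped (3.79 to 24.2 CPM in GF, 2.61 to 23.9 CPM in FO). Macrophage markers added up to 22.8 to 59.2, 120.0 to 168, and 308 and 372 CPM in the same order of groups. Peritubular and smooth muscle markers ran from 584 to 837 CPM in GF grafts and 210.1 to 346 CPM in FO grafts, beside 355 and 411 CPM in control testis. Mesothelial markers reached at most 12.8 CPM in GF, 0.87 CPM in FO and 1.65 CPM in control, and adipocyte markers at most 76.3, 51.3 and 3.17 CPM.

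**Figure D3:**
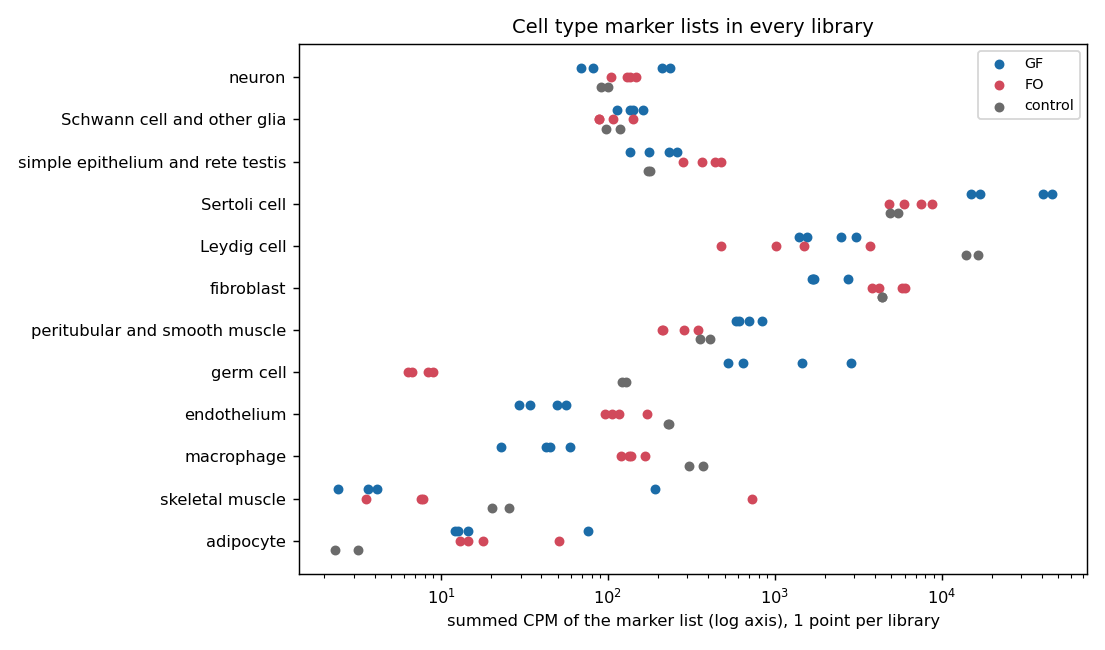
Summed CPM of 12 lists of cell type markers, on a log axis, with 1 point for each of the 4 GF, 4 FO and 2 control libraries. The FO libraries are highest for simple epithelium and rete testis, and lie between 105 and 148 CPM for the neuronal list, inside the GF range of 68.8 to 236 CPM. Skeletal muscle markers stand out in GF 3, at 192 CPM, and in FO 1, at 729 CPM.

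STK32A, SEL1L3 and CP have separate roles. STK32A (chr2:148519808-148663591), a serine/threonine kinase of little known function, had 24.4, 26.9, 15.2 and 30.4 CPM in the GF libraries, 135, 102, 90.0 and 127 CPM in the FO libraries, and 1.32 and 0.907 CPM in control. It varied least within both graft groups, with a coefficient of variation of 26.9% in GF and 18.6% in FO, and its groups did not overlap. The log2 fold change was -2.22 ± 0.27 for GF over FO, 6.64 ± 0.46 for FO over control and 4.42 ± 0.43 for GF over control (edgeR adjusted p = 3.23e-05 for this last comparison).

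SEL1L3 (chr8:19534451-19649784), a membrane protein named for its likeness to the ER degradation factor SEL1L, had 6.86, 4.51, 0.345 and 0 CPM in the GF libraries, 30.1, 42.0, 24.1 and 34.1 CPM in the FO libraries, and 9.56 and 23.9 CPM in control. It was the only one of the 10 for which all 4 GF libraries lay below both control libraries. The lowest FO library exceeded the higher control library 1.01-fold, so SEL1L3 was strongest in FO by rank alone. The log2 fold change for FO over control, 0.96 ± 0.78, is the single one of the 10 that was not called, and it was 1.75 without control 2. For GF over FO it was -3.36 ± 0.73, and -4.08 without GF 1. SEL1L3 was lower in GF than in control (-2.38 ± 0.77, edgeR adjusted p = 0.0364). That call ended without any single FO library (adjusted p = 0.0535 to 0.0593), without control 1 (0.0644) and without control 2 (-1.61, adjusted p = 0.362), and without GF 1 the value was -3.10.

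CP (chr13:89396713-89463540), the secreted copper protein that oxidises iron for its export from cells, had 5.36, 7.58, 0 and 5.88 CPM in the GF libraries, 82.8, 45.02, 29.2 and 40.3 CPM in the FO libraries, and 1.32 and 0.755 CPM in control. It varied most within FO, with a coefficient of variation of 47.2% and FO 1 standing 2.84-fold above FO 3. Its log2 fold change was -3.34 ± 0.63 for GF over FO and 5.54 ± 0.95 for FO over control. For GF over control it was 2.21 ± 0.88 and did not pass (edgeR adjusted p = 0.081). GF 3 had no count, and without GF 3 it passed (2.57, adjusted p = 0.00591). CP overlaps the neighbouring gene HPS3 by 12790 bases in the annotation, and the use of strand in counting is not known, so reads of the pair may have been mixed. Over all libraries HPS3 had 1020 counts beside 930 of CP. CRB2 likewise overlaps DENND1A by 743 bases, with 2498 counts of DENND1A beside 2363 of CRB2. STK32A overlaps DPYSL3 by 29 bases, with 758 counts of DPYSL3 beside 2389 of STK32A. Long noncoding RNAs overlap OLFM3 (LOC110260370, by 7831 bases, with 196 counts over all libraries beside 593 of OLFM3), GABBR2 (LOC106509209, by 5918 bases, with 10 counts) and CHL1 (LOC110256276, by 1181 bases, with 0 counts).

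STK32B, the closest relative of STK32A, ran opposite to it. STK32B had 19.5, 27.8, 35.9 and 57.4 CPM in the GF libraries, 7.80, 9.79, 9.65 and 4.87 CPM in the FO libraries, and 9.89 and 8.61 CPM in control, so that it was higher in GF than in FO without overlap (2.13 ± 0.40, adjusted p = 0.0023). STK32C was too low for the test. SEL1L averaged 40.8 ± 7.72 CPM in GF, 53.5 ± 11.2 CPM in FO and 68.4 ± 12.1 CPM in control and did not pass between the grafts (-0.38 ± 0.25, adjusted p = 0.268). In the list of STK32 kinases, SEL1L genes and ER degradation, 1 of 15 tested genes was higher in GF than in FO, 1 lower and 13 did not pass. Either direction held 6.67%, beside 17.6% and 13.0% of all genes. The lower one was EDEM1, which hands misfolded glycoproteins to degradation (-1.32 ± 0.35, adjusted p = 0.0135), and its call ended without FO 1 (0.0597). For FO over control 0 of 16 were called higher by edgeR, 1 lower and 15 did not pass, while 2 were higher at an unadjusted p under 0.05 and DESeq2 called 1 higher. The lower share was 6.25%, beside 10.6% of all genes, of which 8.12% were higher. The lower one, the ER channel component DERL3 (-2.66 ± 0.72, adjusted p = 0.0205), did not pass without FO 4 (0.0559), control 1 (0.103) or control 2 (0.151).

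HEPH, the membrane-bound relative of CP, averaged 1.84 ± 1.34 CPM in GF, 7.11 ± 2.72 CPM in FO and 0.886 ± 0.612 CPM in control. The order of its means was that of CP, but it did not pass for GF over FO (-1.90 ± 0.72, adjusted p = 0.0652) or for FO over control (2.97 ± 1.02, adjusted p = 0.0585), and in the second comparison it passed without GF 3 (adjusted p = 0.00963) or GF 4 (0.0329). HEPHL1 was too low for the test. Of 22 tested genes of iron and copper handling, 2 were higher in GF than in FO, 5 lower and 15 did not pass, with a median of -0.49. As shares, 9.09% were higher and 22.7% lower, beside 17.6% and 13.0% of all genes. LTF, the iron-binding lactoferrin, averaged 1.86 CPM in GF grafts and 20.9 CPM in FO (-3.40 ± 0.53, adjusted p = 8.93e-04). The metallothioneins, which bind copper and zinc, split. MT3 was lower in GF (-1.86 ± 0.32, adjusted p = 0.00153) and MT1A higher (1.28 ± 0.34, adjusted p = 0.0152, a call that ended without FO 1, at 0.0518). Between FO and control, 5 of 25 were higher, 3 lower and 17 did not pass. Here the shares were 20% and 12%, beside 8.12% and 10.6% of all genes. LTF (2.99 ± 0.65, adjusted p = 0.00637) and MT1A (2.12 ± 0.46, adjusted p = 0.00668) were higher in FO, and both calls ended without control 1 (0.0836 and 0.0588) or control 2 (0.0974 and 0.113). FTMT, mitochondrial ferritin, was at 0 in both control libraries and averaged 3.36 CPM in FO. Against 3 counts over the control group it was at least 13.6-fold higher in FO, and at least 7.12-fold without control 1 or 6.52-fold without control 2.

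**Figure D4:**
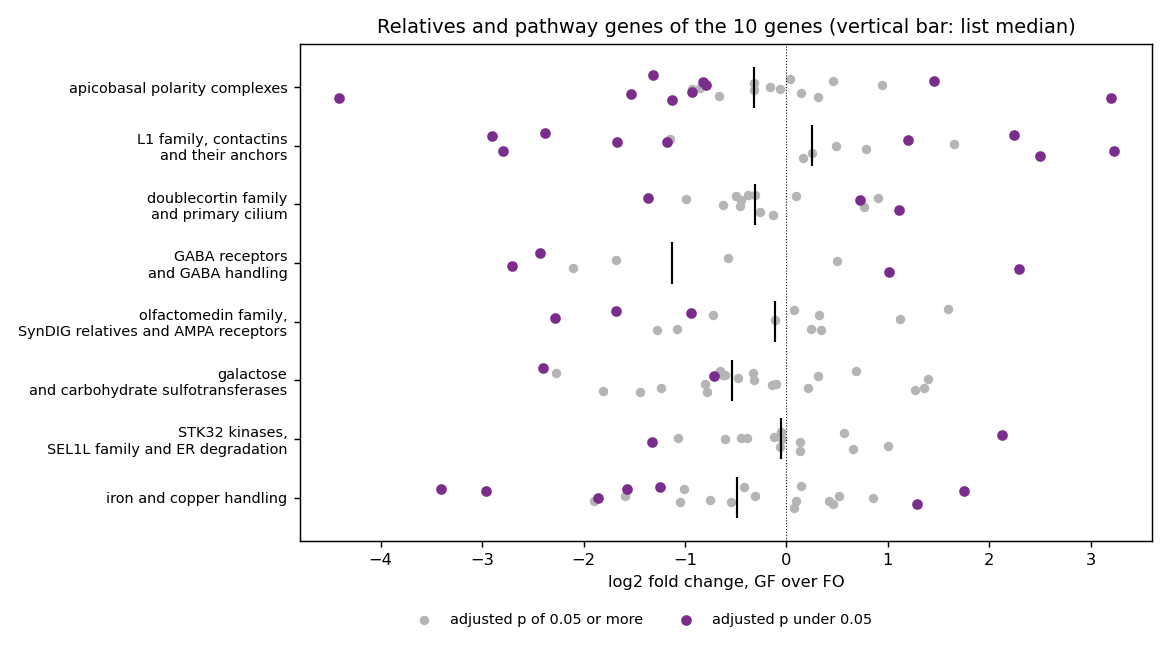
Log2 fold change of GF over FO for the tested genes of 8 lists of relatives and pathway partners, none of them among the 10 genes. Each point is 1 gene, purple where the edgeR adjusted p is under 0.05 and grey otherwise, and the vertical bar is the list median, which runs from -1.13 (GABA genes) to 0.25 (L1 family). Called genes lie on both sides of 0 in 6 of the 8 lists, and only on the lower side for the olfactomedin and the sulfotransferase lists.

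Over all 8 lists, 13 of 131 tested genes were higher in GF than in FO, 26 lower and 92 did not pass. That is 9.92% higher and 19.8% lower, beside 17.6% and 13.0% of all genes tested, with a median of -0.32 against -0.02. With FO set against control, 23 of 153 were higher, 20 lower and 110 did not pass, or 15% and 13.1% beside 8.12% and 10.6% of all genes. The count called in GF versus FO, 39, was 24 without FO 1 and 25 without FO 2, and that of FO versus control, 43, was 10 without control 1 and 11 without control 2. Among the 24 closest relatives of the 10 genes, a list drawn up after the data were seen, 16 could be tested between the grafts. In GF versus FO 4 were higher (DCX, NFASC, STK32B and GABBR1), 5 lower (CRB3, DCLK1, L1CAM, NRCAM and PRRT2) and 7 did not pass. Of all genes, 17.6% were higher and 13.0% lower. The calls of DCX, GABBR1, L1CAM and PRRT2 ended without some single libraries, as given above. For FO over control 7 of 19 were higher, 2 lower and 10 did not pass, and without control 1 or control 2 only 3 were called. Here 8.12% of all genes were higher and 10.6% lower. Relatives of the genes chosen for their level in FO were thus called in either direction between the grafts.

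Within the graft groups, many of the 10 genes had the same highest or lowest library. FO 1 was the highest FO library for 8 genes, FO 2 for SEL1L3 and FO 4 for SYNDIG1L, while FO 3 was the lowest for 9 and FO 2 for CRB2. The share of all genes with that order in FO was not counted, so it is not shown to be particular to these genes. Within GF, GF 1 and GF 2 both stood above GF 3 and GF 4 for 7 of 10 genes, with DCDC2, STK32A and CP as the exceptions, a pattern that 32.1% of all genes share. Relative spread was wider in GF than in FO for 9 of the 10 genes, with GABBR2 as the exception (34.5% in GF and 37.5% in FO). The share of all genes with a wider spread in GF was not counted either. The coefficient of variation reached 116% for OLFM3 and 114% for SEL1L3 in GF, whose low GF counts add counting error. Skeletal muscle markers reached 192 CPM in GF 3 and, among the FO libraries, 729 CPM in FO 1, with at most 25.4 CPM in any other library. Without FO 1 and GF 3 the 10 genes were again all lower in GF, a direction set by the choice. GF 3 and GF 4 had the lowest totals and the highest sums of Sertoli cell markers, 40440 and 45660 CPM, against 14950 and 16890 CPM in GF 1 and GF 2. Most of that sum was CLU, the secreted chaperone clusterin, and without it the other 11 markers summed to 1313 and 1731 CPM in GF 3 and GF 4, against 1252 and 1189 CPM in GF 1 and GF 2. The part of these differences in the spread of the 10 genes was not tested.

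The full order FO above GF above control, with no overlap, was met by 6 of 10 genes (CRB2, DCDC2, CHL1, GAL3ST3, STK32A and GABBR2). The share of all genes, 1.28%, is no yardstick for this, since all 10 already had every FO library on top. Of the 1496 genes with every FO library on top, 204 met the full order. The upper step of that order was part of the choice. The lower step was not directly so, though the choice favoured low control levels. For OLFM3, SYNDIG1L and CP the GF libraries overlapped control, and for SEL1L3 they lay below it. Expressed as likeness over the 10 libraries, the log2 CPM of each gene had a Pearson r of 0.80 to 0.95 with the mean of the other 9, except for SEL1L3 at 0.45. These libraries form 3 groups, so r describes mainly the group order and carries no test.

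The genes most like the mean of the 10 over the same 10 libraries were ranked by Pearson r among 10212 other genes, of which 215 had r of at least 0.9. The first 8 were CFI (r = 0.996), NPC2 (0.989), ITGBL1 (0.988), BCAS1 (0.987), the mitochondrial gene ND6 (0.986), and TRIM9, MGAT4C and CDC42EP3 (all 0.985 or just below). CFI, which encodes a complement protease, ranged from 33.9 to 159 CPM in GF and from 648 to 1422 CPM in FO, and averaged 8.80 ± 1.55 CPM in control. NPC2, a carrier of cholesterol in lysosomes, averaged 505 ± 260.3 CPM in GF, 2535 ± 624 CPM in FO and 166 ± 25.9 CPM in control. BCAS1, a gene of myelinating oligodendrocytes in the brain, averaged 11.98 ± 7.36 CPM in GF, 88.2 ± 28.8 CPM in FO and 2.09 ± 1.24 CPM in control. TRIM9, a ubiquitin ligase of neurons, averaged 8.65 ± 5.97 CPM in GF, 61.0 ± 7.97 CPM in FO and 1.59 ± 0.544 CPM in control. By Spearman's rho in place of r, 25 genes stood at or above the eighth place with ties counted, and 4 of the 8 (CFI, BCAS1, TRIM9 and CDC42EP3) were among them.

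**Figure D5:**
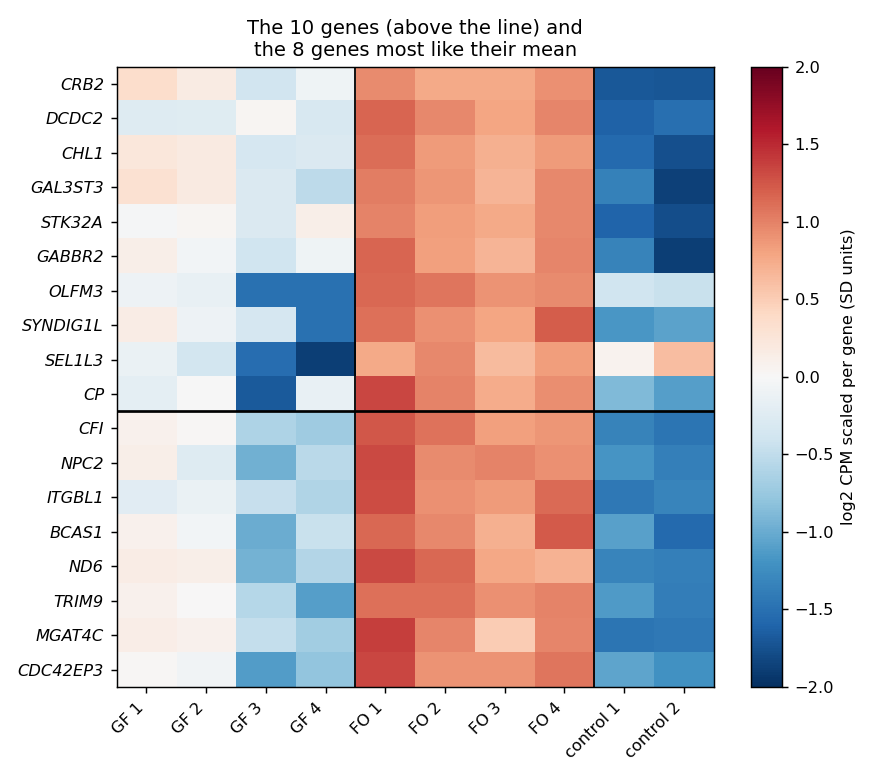
Log2 CPM of the 10 genes and, under the line, of the 8 genes most like their mean, scaled for each gene to mean 0 and SD 1 over the 10 libraries (red high, blue low). Columns are the GF, FO and control libraries, and the FO columns are the reddest in every row, while SEL1L3 is also above its mean in both control libraries.

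NPC2 lies 50736 bases from SYNDIG1L on chromosome 7, which led to a look at the neighbours of all 10 genes after the data were seen. Of the 40 nearest protein-coding genes, a pair on each side of each gene, 29 were tested between the grafts. Of these 5 were higher in GF (17.2%, beside 17.6% of all genes) and 9 lower (31%, beside 13.0%). Lower neighbours included NPC2 (-2.33, adjusted p = 7.46e-04), NRSN1 at 17003 bases from DCDC2 (-2.46, adjusted p = 0.0196), ANKS6 at 26918 bases from GABBR2 (-2.43, adjusted p = 0.00287) and CST6 at 17537 bases from GAL3ST3 (-1.56, adjusted p = 0.00605). The NRSN1 call ended without FO 1 (0.0809) or FO 2 (0.0619). SF3B2, 2247 bases from GAL3ST3 on its other side, was higher in GF (1.85, adjusted p = 0.00459). When FO was set against control testis, 9 of 34 neighbours were higher (26.5%, beside 8.12%) and 3 lower (8.82%, beside 10.6%), with a median of -0.22. The neighbours are few and were examined because one of them had stood out, so these shares are a description.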

How the data were processed

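PolyA RNA was extracted with Trizol and made into libraries with the QuantSeq 3' kit, per the labels' protocols. The authors deposited 1 table of raw counts per gene name for 10 libraries. The build Sscrofa11.1 and DESeq2 1.42.0 are named, without a role, per the submitters' processing notes. Aligner, counter and strand setting: not given in the sources used here. Columns were assigned through the letters and numbers of the titles, and F was read as FO. Of 27376 rows, 26836 carry a name of the RefSeq table of Sscrofa11.1, 37 mitochondrial rows were named by locus tag, and 26 rows whose name had become a date stayed in the fit, unnamed. Positions are RefSeq's.

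Genes were filtered with filterByExpr (minimum count 10) and scaled with TMM. Differences were tested with edgeR 4.0.16 in R 4.3.3 (quasi-likelihood F test, robust) on all genes, and called at a Benjamini-Hochberg adjusted p under 0.05. Every adjusted p in the text is from this test unless another tool is named. GF versus FO used 8 libraries (13782 genes). The comparisons with control used all 10 in 1 fit (15877 genes), since control has 2 libraries. The SE is the log2 fold change divided by the square root of F. No set test was run. Where a group held 0 counts the fold is a bound against 3 counts over the group. Where it held 1 to 3, the fold is a ratio with an exact 95% interval, for counting error only. Limma 3.58.1 is loaded by edgeR.

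The 10 genes, the 8 lists of 192 relatives and pathway genes (185 in the table), the marker lists and the rule for named genes were chosen with earlier results of these data known. Named are the 10 genes, up to 3 called genes per list and comparison with the lowest adjusted p, and the 8 genes most like the mean of the 10 among those with an average log2 CPM of at least 3. The closest relatives and the neighbours were added after seeing the data. The test was checked on simulated data. Alternatives were DESeq2, RLE size factors, scaling by total counts, testing without the filter, a block for the replicate number, only the 2 groups compared, and leaving out GF 3 and GF 4, FO 1 and GF 3, or each library in turn. The depth of each library limits precision for genes of a few counts. The values of 1 neuronal marker are not reported here.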

Additional observations from a re-analysis of the deposited data

Results flagged for a closer look

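DCDC2 in GF 3 stood far from the other libraries of its group, at 60.8 CPM against 30.8 to 35.7 CPM in GF 1, GF 2 and GF 4. The gap took up 0.834 of the range of the 4 values, just above the 95% limit of Dixon's test for 4 samples. It was 1 of 20 groups examined (10 genes in GF and in FO), and chance flags about 1 in 20. Without GF 3 the log2 fold change of DCDC2 for GF over FO was -3.43, against -3.15 with it. GF 3 was the lowest GF library for CRB2, CHL1, STK32A, GABBR2 and CP, and stood at 0 with GF 4 for OLFM3. It also carried skeletal muscle markers, 192 CPM against 2.42 to 4.15 CPM in the other GF libraries, and their part in the DCDC2 value was not tested.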

How the results depend on the processing

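All 10 genes were lower in GF than in FO under every alternative run, and the median log2 fold change ranged from -3.03 to -2.64 over the fits that left out 1 library, from 6.18 to 6.89 for FO over control and from 3.55 to 4.19 for GF over control. The choice had set the direction of GF to FO and of FO to control, so its stability is a description only. The number of genes called was 2902 to 4842 for GF versus FO (4205 in the main fit), 796 to 3987 for FO versus control (2972) and 1141 to 4729 for GF versus control (4091) when 1 library was left out. For the 8 lists together it was 24 to 49, 10 to 55 and 12 to 54, and for the closest relatives 6 to 10, 3 to 11 and 1 to 7. Without FO 1 and GF 3, GF versus FO gave 2312 genes, 22 list genes and 5 relatives. With only the 2 groups compared, FO versus control gave 6600 genes and 75 list genes, and GF versus control 2201 genes, 23 list genes and 3 relatives. Without GF 3 and GF 4, FO versus control gave 6510 genes and 74 list genes, and GF versus control 69 list genes and 9 relatives. The cause of these shifts was not tested. In GF versus control the value of OLFM3, -0.02, turned positive with total counts (0.11), the replicate block (0.29), without FO 1 and GF 3 (0.32), without GF 3 and GF 4 (0.81), and without GF 3, GF 4 or control 1 (0.33, 0.35 and 0.02), ranged from -0.52 to 0.35 without 1 library, and passed in none of these. SYNDIG1L and SEL1L3 lost their calls in GF versus control with only the 2 groups compared (adjusted p = 0.203 and 0.178) and without FO 1 and GF 3 (0.0582 and 0.0773), and SEL1L3 with total counts (0.0576). CP passed there with DESeq2 (0.0232). SEL1L3 passed in FO versus control with only the 2 groups compared (adjusted p = 0.025) and without GF 3 and GF 4 (0.0252). With total counts as scaling, 69.1% of calls in GF versus FO were higher (57.5% with TMM), and all genes had a median of 0.13 (-0.02 with TMM). Same-numbered GF and FO libraries correlated at 0.0549 to 0.218 in their deviations, over 0.1 in 2 of 4 pairs, and 2 of 4 libraries correlated best with their own number, so the numbers were not taken to pair samples. With the replicate number as a block 4335, 3219 and 3282 genes were called in the 3 comparisons, SEL1L3 lost its call in GF versus control (-2.001, adjusted p = 0.0729) and CP passed (2.52, adjusted p = 0.0339). Depth limits OLFM3, SYNDIG1L, SEL1L3 and CP, which had 40 to 84 counts over the 4 GF libraries.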
